A study of Mus musculus with 8 samples.

Results

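The 10 genes described here are subunits of the transcription factor NF-kB and genes that NF-kB is known to induce and that feed back on it: Nfkb1, Nfkb2, Relb, Nfkbia, Nfkbiz, Bcl3, Tnfaip3, Birc3, Traf1 and Cd83. They were found by RefSeq symbol among 20887 genes on the array and read from the brightest probe of each. All 10 were among the 13187 genes tested, which were well above background on at least 2 of 8 arrays, and 9 were above background on all 8 arrays. Traf1 was the exception.

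Total marrow of 4 genotypes, all carrying Cre-ERT2 (a Cre recombinase switched on by tamoxifen) on the C57BL/6 strain, was given to lethally irradiated CD45.1+ recipients, which were themselves wild type. The donors were JAK2V617F;Ezh2flox/flox;Cre-ERT2 (JAK2V617F/Ezh2Δ/Δ below), Ezh2flox/flox;Cre-ERT2 (Ezh2Δ/Δ), JAK2V617F;Cre-ERT2 (JAK2V617F) and Cre-ERT2 alone (WT). Ezh2, the methyltransferase of the polycomb complex PRC2, was deleted 4 weeks after transplantation, and JAK2V617F is the activated kinase of myeloproliferative neoplasms. At 2 months, megakaryocyte and erythroid progenitors (MEP) and the stem cell fraction that is Lineage-negative, Sca-1+ and c-Kit+ (LSK) were sorted, and RNA of each of the 8 groups was hybridised to 1 one-colour array. The labels give neither the promoter that drives JAK2V617F nor whether animals were pooled.

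NF-kB factors are dimers of Rel-family proteins. In resting cells IkB proteins hold them in the cytoplasm, and kinases activated by TNF, interleukin-1 or Toll-like receptors release them by marking IkB for destruction. Free dimers enter the nucleus and switch on, among many genes, those for their own inhibitors, which ends the response. A second, slower branch runs through the kinase NIK and the processing of the Nfkb2 product into a partner of RelB. In blood-forming tissue the pathway is known for its part in inflammatory signalling and in the survival of stem and progenitor cells.

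Promoter sequences were searched for the kappa-B site, the decamer that NF-kB dimers bind, and those that hold a match are shown. RefSeq promoter sequences (GRCm38.p6) were on hand for 6 of the 10 genes (Nfkbia, Tnfaip3, Bcl3, Nfkb2, Birc3 and Traf1). The kappa-B consensus was searched by name on both strands in the 250 bases before each start site. It was found for 3 of the 6 genes (Nfkbia, Tnfaip3 and Nfkb2), while 8.23% of all 27025 genes held a match in at least 1 window of that length. Below are 150 bases before the start site of these 3 genes, each read 5′ to 3′ on the gene's own strand and ending at the base before the start, with matches in capitals. The position is chr12:55492648-55492797 on the minus strand for Nfkbia, chr10:19015411-19015560 on the minus strand for Tnfaip3 and chr19:46304587-46304736 on the plus strand for Nfkb2.
Nfkbia: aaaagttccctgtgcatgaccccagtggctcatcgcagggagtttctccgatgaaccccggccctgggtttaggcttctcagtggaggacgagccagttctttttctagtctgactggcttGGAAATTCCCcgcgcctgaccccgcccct
Tnfaip3: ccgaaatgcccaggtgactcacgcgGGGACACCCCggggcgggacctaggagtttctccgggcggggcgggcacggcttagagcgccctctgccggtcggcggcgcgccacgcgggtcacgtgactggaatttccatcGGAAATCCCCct
Nfkb2: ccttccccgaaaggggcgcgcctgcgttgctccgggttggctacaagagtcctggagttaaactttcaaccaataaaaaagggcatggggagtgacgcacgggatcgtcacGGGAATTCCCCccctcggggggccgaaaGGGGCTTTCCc
The Nfkbia match began 29 bases before the start. In Tnfaip3 the matches began at 125 (on both strands) and 12 bases before it. In the first of the 3 Nfkb2 start sites they began at 39 (on both strands, with another match overlapping at 38) and 11 bases before it. A match describes these letters and says nothing of binding in these cells.

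Levels below are log2 of the processed signal minus the 75th percentile of the array, so that 0 is the brightness at that percentile. They compare arrays for one gene, not one gene with another. Each group had 1 array, so a difference between 2 arrays has no replicate, and tests rest on 4 matched pairs of arrays that differ in 1 factor. Standard errors (SE) and p-values come from limma, and p-values are Benjamini-Hochberg adjusted over all 13187 genes, with a gene called at an adjusted p under 0.05. The arrays shared 1 slide, whose row was the cell type and whose column was the genotype, so slide position and group cannot be told apart.

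The sorted fractions read as labelled: 7 of 8 LSK markers were called lower in MEP and 8 of 9 MEP markers higher. The Ezh2 probe was at 3.20 to 3.86 on Ezh2-deleted arrays and at 3.33 to 4.04 on Ezh2-intact arrays. Which exon it reads is not known, so this checks nothing about the deletion. Xist, transcribed from the inactive X chromosome, was at 1.39 to 2.85 on the 4 Ezh2-deleted arrays and at -5.47 to -3.24 on the 4 intact arrays, so sex of the marrow and Ezh2 status cannot be told apart in any Ezh2 comparison below.

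**Figure D1:**
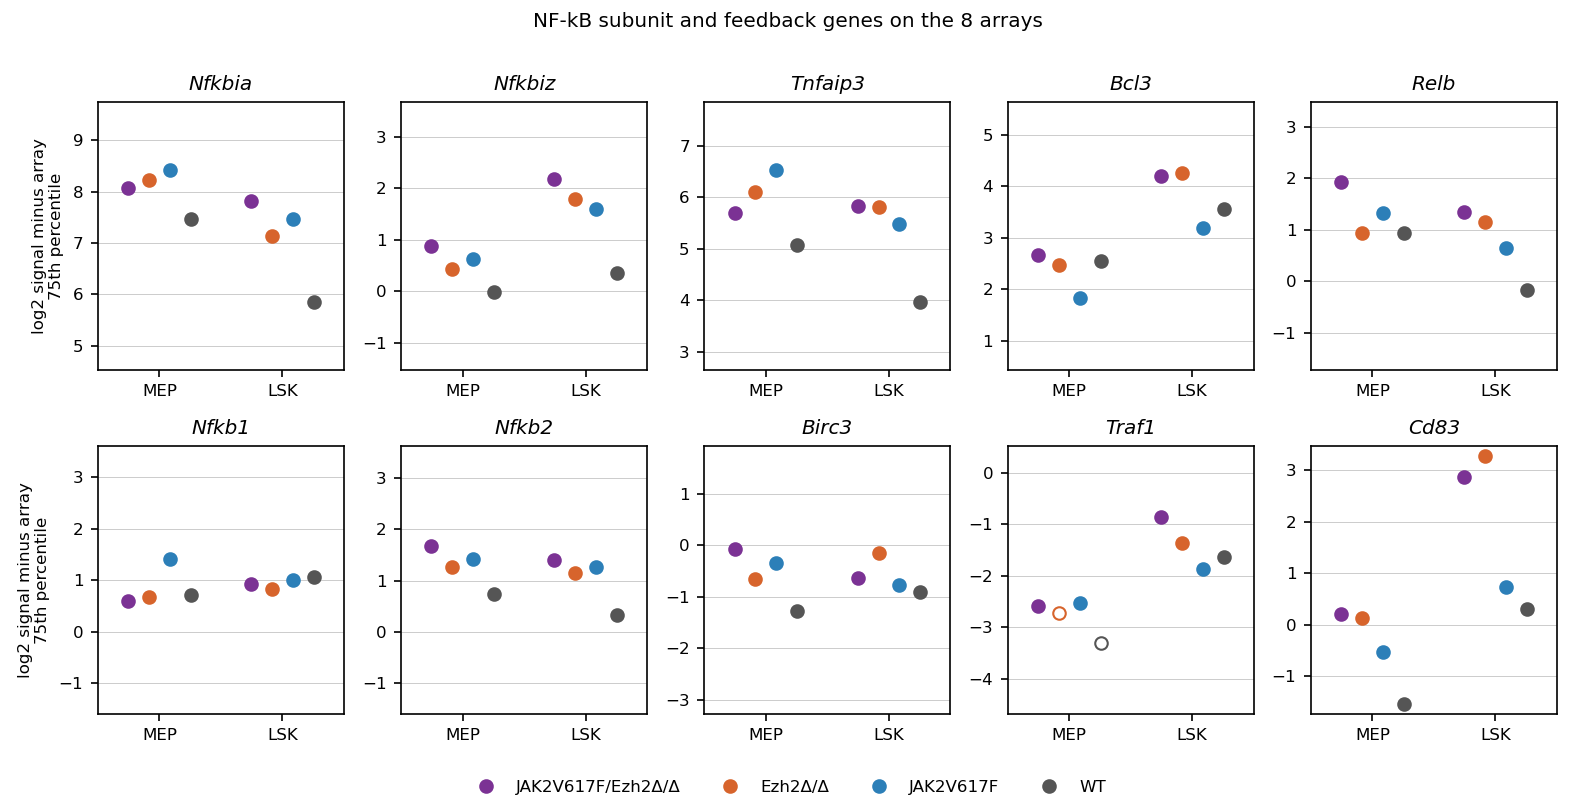
Level of each of the 10 genes (log2 signal minus the array's 75th percentile, vertical axis) on the 8 arrays, MEP left and LSK right in each panel, 1 point an array, coloured by genotype. Open points (Traf1 in Ezh2Δ/Δ and WT MEP) were not well above background. All panels span the same log2 range, and the WT point is the lowest of its cell type in most of them.

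Most of these genes had their lowest signal on the WT array of the cell type. In LSK the WT array was the lowest of 4 for 7 of the 10 genes (Nfkbia, Nfkbiz, Tnfaip3, Relb, Nfkb2, Birc3 and Cd83), which holds for 21.6% of all genes tested. In MEP it was the lowest for 7 genes (Nfkbia, Nfkbiz, Tnfaip3, Nfkb2, Birc3, Traf1 and Cd83), against 16.2% of all genes. WT Traf1 in MEP was not well above background. The JAK2V617F/Ezh2Δ/Δ array was the highest for 6 genes in MEP (26.0% of all genes) and for 6 in LSK (18.7%). WT was the highest for 0 in MEP (27.6%) and for 1, Nfkb1, in LSK (22.9%). These counts rest on 1 array a group. In bulk RNA, more cells that express a gene and more of its RNA per cell cannot be told apart.

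The NF-kB subunits were Nfkb1, Nfkb2 and Relb. Relb encodes the Rel protein of the slower branch. In MEP it was at 1.94 on the JAK2V617F/Ezh2Δ/Δ array, 0.94 on the Ezh2Δ/Δ array, 1.33 on the JAK2V617F array and 0.94 on the WT array. In LSK its levels were 1.34 (JAK2V617F/Ezh2Δ/Δ), 1.15 (Ezh2Δ/Δ), 0.64 (JAK2V617F) and -0.17 (WT). The double mutant was thus highest in both cell types, WT was lowest in LSK, and Ezh2Δ/Δ and WT MEP were level. Across the 4 pairs the Ezh2 deletion difference was 0.66 (SE 0.22, limma adjusted p = 0.230, higher in 3 of 4 pairs) and the JAK2V617F difference 0.60 (SE 0.22, adjusted p = 0.390, higher in 4 of 4 pairs), and neither was called. A second Relb probe gave 0.78 and 0.57 for the same differences.

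Nfkb2 encodes p100, the precursor that is cut to p52 and pairs with RelB. MEP levels were 1.68 (JAK2V617F/Ezh2Δ/Δ), 1.27 (Ezh2Δ/Δ), 1.42 (JAK2V617F) and 0.74 (WT). LSK levels followed the same order of genotypes, at 1.39, 1.14, 1.26 and 0.34. All 3 mutant arrays stood above WT in both cell types, and JAK2V617F arrays were above JAK2 wild-type arrays of their cell type without overlap. Such a lack of overlap held for 11.0% of all genes in MEP and 30.8% in LSK. The differences were 0.43 for Ezh2 deletion (SE 0.16, limma adjusted p = 0.254) and 0.57 for JAK2V617F (SE 0.16, adjusted p = 0.291), each higher in 4 of 4 pairs and neither called.

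Nfkb1 encodes p105, the precursor of the p50 subunit, and it was the exception among the subunits. In MEP it was at 0.60 (JAK2V617F/Ezh2Δ/Δ), 0.67 (Ezh2Δ/Δ), 1.40 (JAK2V617F) and 0.72 (WT), so that the JAK2V617F array stood above the others. Its LSK levels were 0.93 (JAK2V617F/Ezh2Δ/Δ), 0.83 (Ezh2Δ/Δ), 1.00 (JAK2V617F) and 1.05 (WT). The LSK arrays lay within 0.22 of each other, a range wider than that of 5.04% of the genes tested. It was lower with Ezh2 deletion in 4 of 4 pairs, by a log2 difference of -0.29 that was not called (SE 0.18, limma adjusted p = 0.401), and its second probe gave -0.27. The JAK2V617F difference was 0.17 (SE 0.18, limma adjusted p = 0.736), not called. Being lower with Ezh2 deletion in all 4 pairs held for 26.1% of all genes.

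Among the inhibitors, Nfkbia encodes IkB-alpha, the inhibitor that NF-kB itself renews. On MEP arrays it was at 8.07 (JAK2V617F/Ezh2Δ/Δ), 8.22 (Ezh2Δ/Δ), 8.43 (JAK2V617F) and 7.47 (WT). On LSK arrays it was at 7.82, 7.13, 7.46 and 5.84 in that order of genotypes. WT was lowest in both, and in LSK the 3 mutant arrays were 2.44-fold to 3.92-fold above it. Over the 4 pairs the differences were 0.51 for Ezh2 deletion (SE 0.29, limma adjusted p = 0.362) and 0.77 for JAK2V617F (SE 0.29, adjusted p = 0.394), each higher in 3 of 4 pairs and not called.

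Nfkbiz encodes IkB-zeta, a nuclear protein of the IkB family that helps NF-kB switch on secondary targets. Its MEP levels were 0.89 (JAK2V617F/Ezh2Δ/Δ), 0.43 (Ezh2Δ/Δ), 0.62 (JAK2V617F) and -0.02 (WT). In LSK they were 2.17 (JAK2V617F/Ezh2Δ/Δ), 1.80 (Ezh2Δ/Δ), 1.61 (JAK2V617F) and 0.36 (WT). WT was lowest in both, and in LSK all 3 mutants stood more than 2-fold above it. It was higher in 4 of 4 pairs for Ezh2 deletion (0.68, SE 0.22, limma adjusted p = 0.209) and in 4 of 4 for JAK2V617F (0.68, SE 0.22, adjusted p = 0.327). Neither difference was called.

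Bcl3 encodes another nuclear IkB protein, which binds p50 and p52 dimers on DNA, and it did not share the low WT level. In MEP it was at 2.67 (JAK2V617F/Ezh2Δ/Δ), 2.47 (Ezh2Δ/Δ), 1.82 (JAK2V617F) and 2.55 (WT), and WT lay between the Ezh2-deleted arrays. In LSK it was at 4.20 (JAK2V617F/Ezh2Δ/Δ), 4.25 (Ezh2Δ/Δ), 3.20 (JAK2V617F) and 3.56 (WT), with both Ezh2-deleted arrays above both intact ones. The JAK2V617F array was the lowest in both cell types. The Ezh2 deletion difference was 0.62 (SE 0.20, limma adjusted p = 0.222) and the JAK2V617F difference -0.24 (SE 0.20, adjusted p = 0.679), and neither was called.

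Tnfaip3 encodes A20, a ubiquitin-editing enzyme that shuts off signalling upstream of the IkB kinases. Its MEP levels were 5.70 (JAK2V617F/Ezh2Δ/Δ), 6.11 (Ezh2Δ/Δ), 6.54 (JAK2V617F) and 5.08 (WT). The LSK levels were 5.84, 5.82, 5.49 and 3.96 in that order. In LSK the 3 mutant arrays thus lay close together and 2.88-fold to 3.67-fold above WT, and in MEP the single mutants were above the double mutant. Over the pairs the differences were 0.60 for Ezh2 deletion (SE 0.38, limma adjusted p = 0.406) and 0.65 for JAK2V617F (SE 0.38, adjusted p = 0.585), not called.

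Birc3 and Traf1 encode partners in the TNF receptor complex, the ubiquitin ligase cIAP2 and an adaptor that binds it. Birc3 in MEP was at -0.08 (JAK2V617F/Ezh2Δ/Δ), -0.65 (Ezh2Δ/Δ), -0.33 (JAK2V617F) and -1.27 (WT). In LSK it was at -0.63, -0.14, -0.76 and -0.91 in that order. WT was lowest in both cell types, the double mutant was highest in MEP and Ezh2Δ/Δ in LSK. It was higher with Ezh2 deletion in 4 of 4 pairs by 0.44, which was not called (SE 0.23, limma adjusted p = 0.336). The JAK2V617F difference was 0.29 (SE 0.23, adjusted p = 0.665), not called.

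Traf1 in MEP was at -2.58 on the JAK2V617F/Ezh2Δ/Δ array and -2.53 on the JAK2V617F array, and not well above background on the Ezh2Δ/Δ array (-2.73) or the WT array (-3.30). In LSK it was at -0.86 (JAK2V617F/Ezh2Δ/Δ), -1.36 (Ezh2Δ/Δ), -1.88 (JAK2V617F) and -1.63 (WT), with the Ezh2-deleted arrays above the intact ones. The Ezh2 deletion difference of 0.45 was not called (SE 0.20, limma adjusted p = 0.290), nor was the JAK2V617F difference of 0.29 (SE 0.20, adjusted p = 0.631).

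Cd83, a surface protein of activated dendritic and B cells and a known NF-kB target, had the largest estimate for Ezh2 deletion among the 10 genes. In MEP it was at 0.20 (JAK2V617F/Ezh2Δ/Δ), 0.13 (Ezh2Δ/Δ), -0.52 (JAK2V617F) and -1.54 (WT). In LSK it was at 2.87 (JAK2V617F/Ezh2Δ/Δ), 3.27 (Ezh2Δ/Δ), 0.72 (JAK2V617F) and 0.30 (WT). Both Ezh2-deleted arrays stood above both intact arrays in each cell type. Its range over the LSK arrays, 7.84-fold, was wider than that of 97.7% of all genes. The difference over the 4 pairs was 1.88 (3.69-fold, SE 0.34, 95% interval 1.10 to 2.67, higher in 4 of 4 pairs), and its limma adjusted p of 0.0650 missed the threshold. It was called when the background was corrected by normexp (1.61, adjusted p = 0.0340), when the test kept only genes measured above background throughout (adjusted p = 0.00653) and with a trended variance prior (adjusted p = 0.0292). In that order these settings called 129, 104 and 179 of all genes, beside 93 in the reported fit. Cd83 was not called in any other setting. Among those were quantile normalization (limma adjusted p = 0.115), no filter on dim probes (0.117) and a common floor for dim values (0.227). Its JAK2V617F difference was 0.28 (SE 0.34, limma adjusted p = 0.771), not called.

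Estimates for B cell and dendritic cell markers were also positive with Ezh2 deletion. The summed signal of 10 B cell markers, in units of the 75th percentile, was 7.88 (JAK2V617F/Ezh2Δ/Δ), 46.8 (Ezh2Δ/Δ), 3.63 (JAK2V617F) and 3.45 (WT) in MEP, and 19.8, 59.6, 20.6 and 15.6 in LSK. Ms4a1 and Pax5, which define B cells, were not above background on any array. Without Cd79b the B cell sum was 5.34, 39.1, 1.67 and 1.85 in MEP and 4.78, 44.2, 2.30 and 1.75 in LSK. On the Ezh2Δ/Δ arrays the Vpreb1 probe gave more of that sum than the Cd79b probe. Their log2 levels were 4.31 against 2.94 in MEP and 4.56 against 3.94 in LSK, which does not rank the amounts of RNA. In the list of 10 dendritic cell and antigen presentation genes, Siglech alone gave 83.3% to 94.7% of the summed brightness. Without it the sum was 31.9, 38.5, 31.6 and 26.7 in MEP and 59.8, 53.1, 56.9 and 53.7 in LSK, in the same order. Xcr1 of that list was not above background on any array, and 7 of the 7 B cell markers and 9 of the 9 dendritic cell markers tested were on the positive side with Ezh2 deletion (1 and 0 called). The B cell sum was highest on the Ezh2Δ/Δ array of each cell type with or without Cd79b. Of 5 T and NK cell markers tested 4 were positive and 1 was called, Gzma. The part of such cells in the Cd83 difference was not tested.

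**Figure D2:**
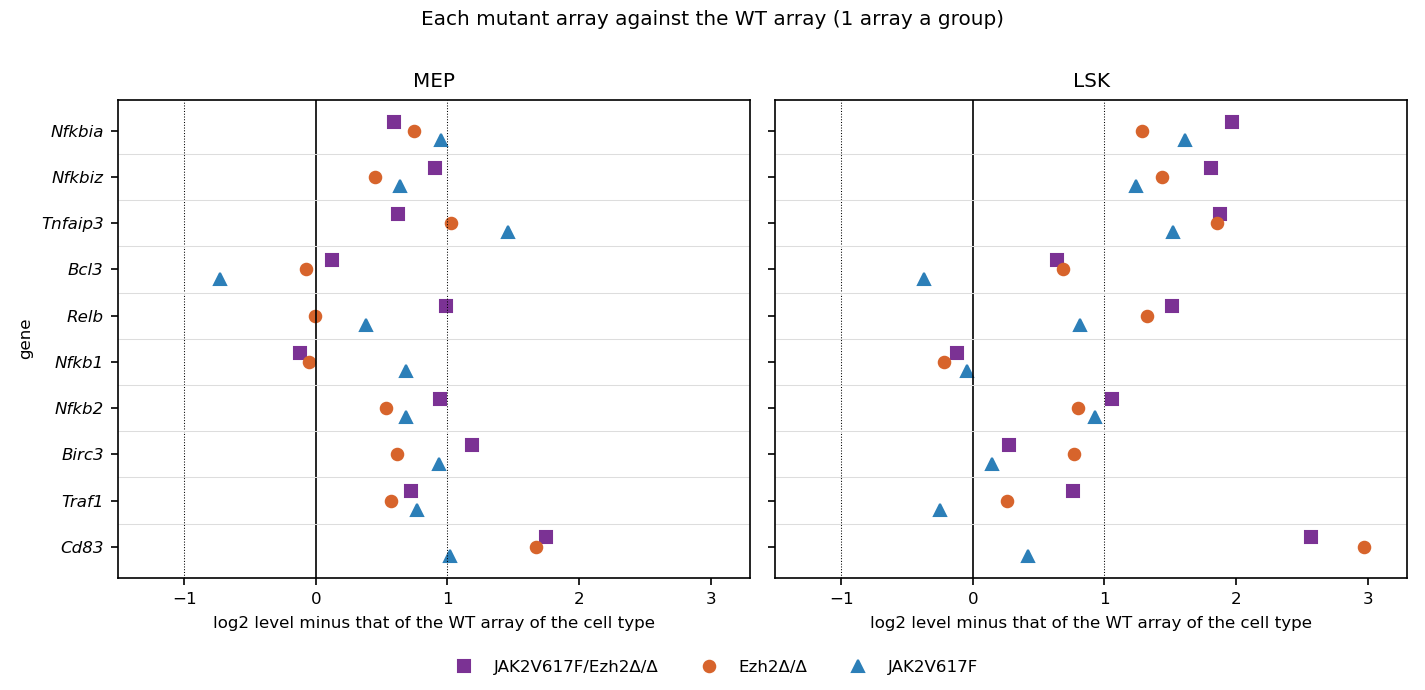
Log2 level on each mutant array minus that on the WT array of the same cell type (horizontal axis) for the 10 genes (vertical axis), MEP left and LSK right, with 1 array a group. Dotted lines mark 2-fold. In LSK the median over the 10 genes was 1.28 for JAK2V617F/Ezh2Δ/Δ, 1.05 for Ezh2Δ/Δ and 0.62 for JAK2V617F.

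Set against WT, the 10 genes together stood higher on each of the 3 mutant arrays, and these comparisons share the WT array. In LSK their median difference from WT was 1.28 for JAK2V617F/Ezh2Δ/Δ (2.44-fold), 1.05 for Ezh2Δ/Δ (2.06-fold) and 0.62 for JAK2V617F (1.53-fold). The medians over all genes were -0.01, -0.07 and 0.09. At least 2-fold above WT were 6 of the 10 genes in the double mutant (6.06% of all genes), 5 in Ezh2Δ/Δ (4.57%) and 3 in JAK2V617F (3.90%). Nfkbia, Nfkbiz and Tnfaip3 were at least 2-fold above WT on all 3 mutant LSK arrays, which holds for 0.978% of all genes.

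In MEP the medians against WT were 0.81 (JAK2V617F/Ezh2Δ/Δ), 0.55 (Ezh2Δ/Δ) and 0.73 (JAK2V617F), beside -0.19, -0.07 and -0.02 over all genes. Here 2 genes were at least 2-fold above WT in the double mutant, Birc3 and Cd83 (8.69% of all genes). In each single mutant it was 2 as well, Tnfaip3 and Cd83 (5.13% of all genes for Ezh2Δ/Δ and 4.03% for JAK2V617F). Cd83 was at least 2-fold above WT on all 3 mutant MEP arrays (1.03% of all genes).

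Pairs that leave out the WT array gave smaller medians. For Ezh2 deletion on the JAK2V617F background, JAK2V617F/Ezh2Δ/Δ minus JAK2V617F, the median was 0.46 in LSK with 9 of 10 genes above 0 (-0.09 and 40.1% over all genes), and 3 genes were at least 2-fold higher (Bcl3, Traf1 and Cd83, with 6.47% of all genes). In MEP it was 0.26 with 6 of 10 above 0 (-0.14 and 41.2% over all genes) and 0 at least 2-fold higher (8.44% of all genes). For JAK2V617F on the Ezh2-deleted background, JAK2V617F/Ezh2Δ/Δ minus Ezh2Δ/Δ, the medians were 0.14 in LSK and 0.18 in MEP, with 7 of 10 above 0 in each. Over all genes the medians were 0.07 and -0.13, with 55.7% above 0 in LSK and 41.1% in MEP. No gene was 2-fold higher there in LSK (3.46% of all genes), and Relb alone of the 10 was in MEP (5.20%).

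The summed signal of genes that respond to cell handling was also lowest on the WT arrays. For 8 such genes (Fos, Fosb, Jun, Egr1, Atf3, Hspa1a, Dusp1 and Zfp36) it was 464 (JAK2V617F/Ezh2Δ/Δ), 591 (Ezh2Δ/Δ), 802 (JAK2V617F) and 356 (WT) in MEP, and 684, 634, 916 and 480 in LSK. All 8 were above background on all arrays. Jun alone gave 41.3% to 58.2% of the sum. Without Jun the sum was 212, 247, 397 and 150 in MEP and 371, 372, 498 and 280 in LSK. Single genes differed: WT was not the lowest for Hspa1a in MEP, nor for Fos, Hspa1a, Dusp1 and Zfp36 in LSK. With JAK2V617F 8 of the 8 were positive (median 0.46) and 0 were called, and with Ezh2 deletion 3 of the 8 were positive (median -0.08). Their part in the levels of the 10 genes was not tested.

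**Figure D3:**
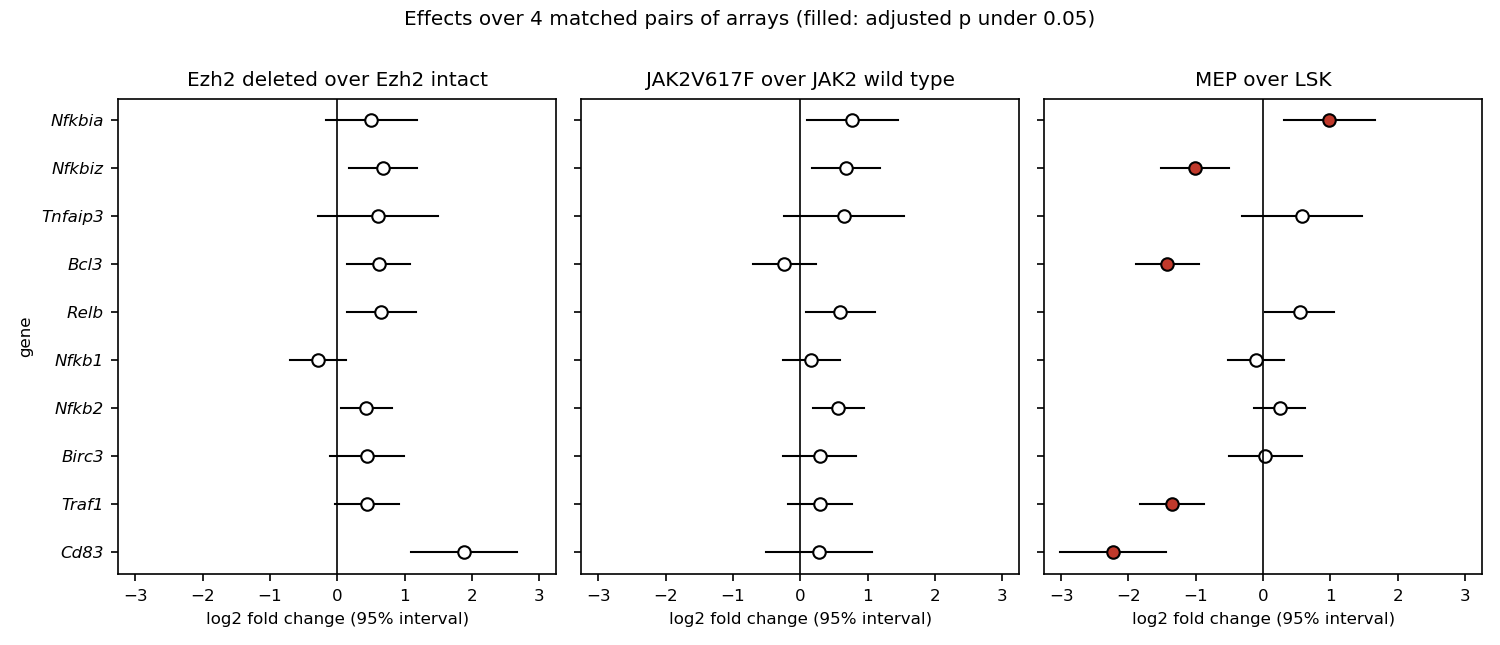
Log2 fold change of each of the 10 genes with its 95% interval from limma over 4 matched pairs of arrays, for Ezh2 deletion (left), JAK2V617F (middle) and MEP over LSK (right). Filled points had an adjusted p under 0.05: 5 genes for MEP over LSK (Nfkbia higher, Nfkbiz, Bcl3, Traf1 and Cd83 lower) and 0 for either genotype.

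Tested across all 4 pairs, Ezh2 deletion gave 0 called genes of the 10, while limma called 0.705% of all genes in either direction. At an unadjusted p under 0.05 there were 5 of 10 (Nfkbiz, Bcl3, Relb, Nfkb2 and Cd83), against 18.1% of all genes. Of the 10, 9 were positive, with a median of 0.55, and the median of all genes was -0.09. Nfkbiz, Nfkb2, Birc3 and Cd83 were higher in all 4 pairs, as were 11.3% of all genes. Leaving out any 1 array gave 9 of 10 positive, with medians of 0.43 to 0.62.

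JAK2V617F likewise gave 0 called genes of the 10 with limma, with 0.311% of all genes called. There were 4 at an unadjusted p under 0.05 (Nfkbia, Nfkbiz, Relb and Nfkb2), against 11.1% of all genes. The median of the 10 was 0.43, with 9 of 10 positive, and that of all genes was 0.01. Nfkbiz, Relb and Nfkb2 were higher in all 4 pairs, as were 7.13% of all genes. Without the JAK2V617F MEP array the median was 0.22 with 8 of 10 positive, and without any other array it was 0.34 to 0.64 with 9 positive.

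Signal from granulocyte genes moved with JAK2V617F. The sum of 8 granulocyte markers was 265 (JAK2V617F/Ezh2Δ/Δ), 41.9 (Ezh2Δ/Δ), 148 (JAK2V617F) and 20.8 (WT) in MEP and 594, 345, 1630 and 513 in LSK, and 4 of the 8 were called higher. In LSK the myeloperoxidase gene Mpo alone gave 86.3% to 96.6% of it, and without Mpo the LSK sums were 81.5, 27.5, 174 and 17.4. Of 5 monocyte markers tested 5 were positive with JAK2V617F (median 1.03) and 0 were called, while 51.4% of all genes were positive. Fcgr1, whose value is that median, was above background only on the JAK2V617F/Ezh2Δ/Δ and JAK2V617F LSK arrays. It entered the test only through arrays on which it was high, so its value is a description. Adgre1 was above background on the JAK2V617F and WT LSK arrays alone. The monocyte list summed to 9.63, 8.08, 6.70 and 8.22 in MEP and to 28.4, 14.5, 61.9 and 20.8 in LSK. Csf1r gave 70.4% to 92.1% of these sums. Within LSK, 1 of 8 LSK markers was positive with JAK2V617F (median -1.06, 0 called), while 56.3% of all genes were. Within MEP, 0 of 9 MEP markers were positive with JAK2V617F (median -0.44, 0 called), while 40.5% of all genes were. The part of such cells in the levels of the 10 genes was not tested.

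The estimates for Ezh2 deletion were lower within MEP than within LSK for all 10 genes, and 0 genes were called in either cell type. Within MEP the median was 0.33, with Cd83 at 1.20 (SE 0.33, limma adjusted p = 0.260) and Nfkb1 at -0.43. In MEP 0.599% of all genes were called, and Cd83 alone of the 10 had an unadjusted p under 0.05 (12.9% of all genes). Within LSK the median was 0.84, with Cd83 at 2.56 (5.90-fold, SE 0.33, limma adjusted p = 0.0875), Tnfaip3 at 1.10, Relb at 1.01, Nfkbiz at 1.00 and Nfkb1 at -0.15. There 0.152% of all genes were called, and 4 of the 10 had an unadjusted p under 0.05 (Cd83, Relb, Nfkbiz and Bcl3), against 9.49% of all genes. Without overlap, both Ezh2-deleted LSK arrays were above both intact ones for 7 of the 10 (Nfkbiz, Tnfaip3, Bcl3, Relb, Birc3, Traf1 and Cd83, with 12.5% of all genes), and in MEP for Cd83 alone of the 10 (15.5%).

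The difference between the cell types was itself tested. All 10 estimates of MEP minus LSK for the Ezh2 effect were below 0 (median -0.55, beside -0.04 over all genes), and 0 were called with limma, as 0.00758% of all genes were. Cd83 had the lowest p, at -1.36 (SE 0.47, unadjusted p = 0.0299, adjusted p = 0.817), and it alone of the 10 had an unadjusted p under 0.05 (5.32% of all genes). No difference between MEP and LSK in the Ezh2 effect was shown for any of the 10.

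JAK2V617F within MEP had a median of 0.53, led by Birc3 at 0.75 (SE 0.25, limma adjusted p = 0.489) and Relb at 0.69 (SE 0.27). Within LSK the median was 0.31, led by Nfkbia at 1.15 (SE 0.36, adjusted p = 0.229), Nfkbiz at 0.81 and Tnfaip3 at 0.77. In each cell type 0 of the 10 were called, where 0.152% of all genes were called in MEP and 0.144% in LSK, and 2 of the 10 had an unadjusted p under 0.05 (7.97% of all genes in MEP, 17.9% in LSK). JAK2V617F arrays were above JAK2 wild-type arrays without overlap for 5 of the 10 in MEP (Nfkbiz, Relb, Nfkb2, Birc3 and Traf1, with 11.0% of all genes), where both Traf1 values on JAK2 wild-type arrays were not well above background. In LSK this held for 2 (Nfkbia and Nfkb2, with 30.8% of all genes). The difference between the cell types in the JAK2V617F effect was called with limma for 0 of the 10 and 0.0% of all genes; Birc3 was nearest at 0.92 (SE 0.36, adjusted p = 0.427), the 1 gene of the 10 with an unadjusted p under 0.05 (11.5% of all genes).

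Whether the 2 lesions added up was asked with an interaction of Ezh2 deletion and JAK2V617F. Its estimate was below 0 for 8 of the 10 genes (median -0.49, beside -0.08 over all genes), and limma called 0 of the 10 and 0.0% of all genes. Tnfaip3 was at -1.68 (SE 0.50, unadjusted p = 0.0122, adjusted p = 0.972), the 1 gene of the 10 with an unadjusted p under 0.05 (3.46% of all genes). Nfkbia was at -1.02 (SE 0.48), and Bcl3 lay on the other side at 0.62 (SE 0.37).

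MEP and LSK differed in 5 of the 10 genes. On the log2 scale Cd83 was lower in MEP by 2.23 (4.68-fold, SE 0.34, limma adjusted p = 0.00178), Bcl3 by 1.43 (2.69-fold, SE 0.20, adjusted p = 0.00126) and Nfkbiz by 1.01 (2.01-fold, SE 0.22, adjusted p = 0.00852). Traf1 was also lower in MEP (limma adjusted p = 0.00174). Its fold is at least 2.39, because 2 of its 4 MEP arrays were not well above background. Nfkbia was higher in MEP by 0.98 (1.98-fold, SE 0.29, limma adjusted p = 0.0297).

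That made 1 gene higher and 4 lower among 10, while limma called 41.0% of all genes in either direction, 20.6% higher and 20.4% lower in MEP. All 4 MEP arrays were below all 4 LSK arrays for Bcl3, Traf1 and Cd83 (17.1% of all genes), and for 0 of the 10 were they all above (18.8%). Relb (0.54, SE 0.22, limma adjusted p = 0.0817), Tnfaip3 (0.58, SE 0.38), Nfkb2 (0.24, SE 0.16), Birc3 (0.03, SE 0.23) and Nfkb1 (-0.11, SE 0.18) were not called. The Nfkbia call ended under quantile normalization (0.62, adjusted p = 0.163), with a common floor for dim values (adjusted p = 0.0607), and when 1 of 6 arrays was left out (adjusted p = 0.0511 to 0.0888): WT, Ezh2Δ/Δ or JAK2V617F/Ezh2Δ/Δ LSK, or WT, Ezh2Δ/Δ or JAK2V617F MEP. Nfkbia and Nfkb2 were higher in MEP in all 4 pairs (31.3% of all genes), and Nfkbiz, Bcl3, Traf1 and Cd83 lower in all 4 (24.5%). On the WT arrays alone, Nfkbia, Tnfaip3 and Relb stood at least 2-fold higher in MEP (14.8% of all genes).

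**Figure D4:**
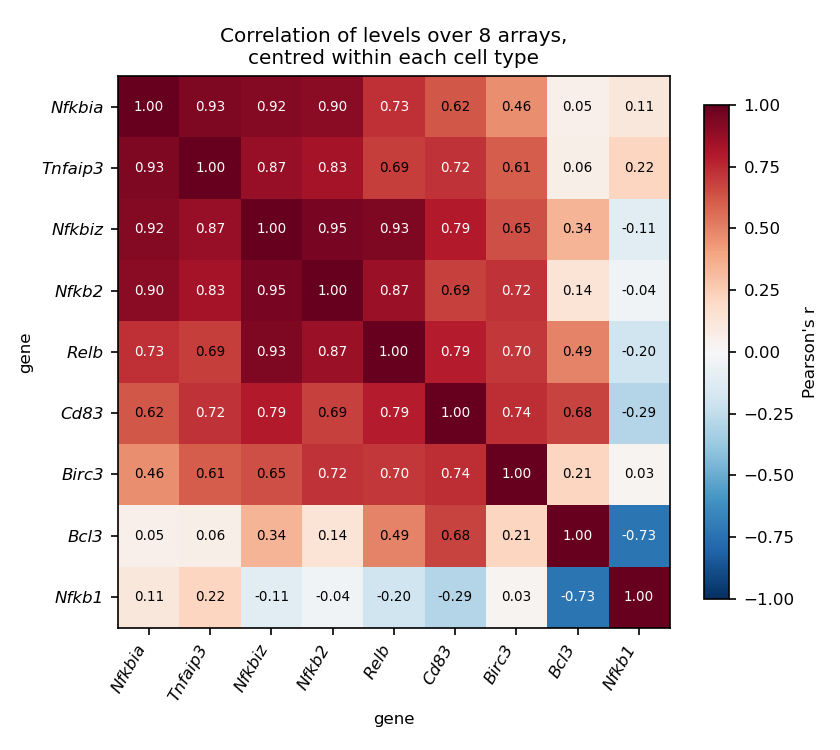
Pearson's r between the levels of the 9 genes above background on all 8 arrays, after centring each gene within each cell type, over 8 arrays. Nfkbia, Tnfaip3, Nfkbiz, Nfkb2 and Relb form a block with r from 0.69 to 0.95, and Bcl3 and Nfkb1 stand apart from it.

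Levels of the genes ran together across genotypes to different degrees. After centring within each cell type, Pearson's r over the 8 arrays was positive for 31 of the 36 pairs of the 9 genes above background throughout, with a median of 0.66. The points share their arrays and scaling, so r is a description only. The highest r was 0.95 (Nfkbiz and Nfkb2), and Nfkbia and Tnfaip3, a pair of fast feedback inhibitors, had 0.93. The lowest was -0.73 (Bcl3 and Nfkb1). Median r of Nfkb1 with the other members was -0.07, while that of Nfkbiz was 0.83.

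Among 10478 genes above background on all arrays, those most like Nfkbia were Gadd45g (r = 0.98), Gadd45b (0.97) and Gas2l1 (0.96), of which the Gadd45 genes are stress-induced regulators of growth arrest. Those most like Tnfaip3 were the heat shock cochaperone Dnajb4 (0.98), the tubulin gene Tuba1a (0.95) and the immediate early gene Fosb (0.94). Nearest to Nfkbiz were Prr7 (0.99), Gadd45b (0.97) and Ermap (0.97), and nearest to Cd83 were BC051142 (0.97), the chemokine Cx3cl1 (0.97) and Gm13889 (0.96). These rankings are over the same 8 arrays.

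The wider pathway was read from 97 further genes in 5 lists (ligands and receptors, adaptors and ubiquitin enzymes, kinases, other subunits and inhibitors, response genes), of which 88 were tested. Ezh2 deletion called 1 of them higher and 0 lower, where 0.705% of all genes were called, with a median of -0.07 (-0.09 over all genes). The called gene was Bcl2a1d, an anti-apoptotic BCL2 relative and NF-kB target, which rose 2.26-fold (log2 1.18, SE 0.17, limma adjusted p = 0.0315), although its near-identical copies may share the probe. All 7 kinases had negative estimates that were not called (median -0.21). With JAK2V617F the fit called 1 higher and 0 lower (0.311% of all genes), with a median of 0.07 (0.01 over all genes). That gene was the cytokine gene Il6, above background on 4 of 4 JAK2V617F arrays and 1 of 4 others. It entered the test only through the arrays on which it was high, so its level, at least 3.56-fold higher, is a description. Nfkbid, a further nuclear IkB gene, was at 1.10 with JAK2V617F (SE 0.33, limma adjusted p = 0.306), not called.

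Between MEP and LSK, 12 of the 88 were called higher and 41 lower in MEP, beside 20.6% and 20.4% of all genes. Of the 41, 8 (Il1r1, Tnfsf11, Tnfrsf1b, Tlr4, Vcam1, Ptgs2, Tnip3 and Rel) were above background on under 2 MEP arrays and entered the test only through LSK, so their folds are descriptions. The ligands and receptors made up 12 of the lower calls, of 16 tested, with 0 higher. MEP had at least 19.5-fold less of Il1r1, the interleukin-1 receptor (1 of 4 MEP arrays above background), and at least 8.10-fold less of Cd14, the co-receptor for bacterial lipopolysaccharide (2 of 4). Tnfsf11, the ligand RANKL, was at least 2.53-fold lower, with 0 MEP and 3 LSK arrays above background, and Tlr2, a Toll-like receptor, was 6.99-fold lower (SE 0.26, limma adjusted p = 0.000157).

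Of 27 adaptors and ubiquitin enzymes 7 were lower and 2 higher in MEP. Among the lower ones were Malt1, a protease of the antigen receptor branch (2.95-fold), the deubiquitinase Cyld (2.23-fold) and Irak3 (2.18-fold), which restrains Toll-like receptor signals. Higher were Tab1 and Tab3 (1.55-fold and 1.53-fold), which bind the kinase TAK1. Of 7 kinases 3 were lower and 2 higher: Map3k14, which encodes NIK of the slower branch, was 6.68-fold lower (SE 0.17, limma adjusted p = 2.4e-05), Ikbke at least 2.32-fold lower (2 of 4 MEP arrays above background) and Tbk1 1.35-fold lower. Map3k7, which encodes TAK1, was 1.60-fold higher and Chuk, which encodes the IKK-alpha kinase, 1.44-fold higher.

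Of the 12 other subunits and inhibitors the fit called 7 lower in MEP and 2 higher. Among the 7 were Tnip3, an A20 partner (at least 2.34-fold, with 1 of 4 MEP arrays above background), Nfkbid (2.61-fold) and Nlrc5 (1.58-fold). The Rel subunit gene was also in that count, but it was above background on 0 MEP arrays and 3 LSK arrays, and its bound shows no direction. Higher were Nfkbib, which encodes IkB-beta (1.62-fold), and the repressor gene Nkrf (1.58-fold). Rela, the main activating subunit, was at 5.97 to 6.74 on all 8 arrays and was called in none of the 3 comparisons.

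Of the 27 response genes tested 12 were lower in MEP and 6 higher. Lower were the chemokine genes Ccl3 (at least 73.9-fold) and Ccl4 (68.4-fold), the prostaglandin synthase gene Ptgs2 (at least 16.1-fold) and the cytokine subunit gene Ebi3 (14.3-fold). Of the 4 MEP arrays, 2 were above background for Ccl3 and 1 for Ptgs2. Higher were Stx11 (6.08-fold), the iron transporter gene Slc11a2 (5.25-fold), the chemokine gene Cxcl10 (4.74-fold) and Ehd1 (2.65-fold). Markers of monocytes were lower in MEP too, with sums of 6.70 to 9.63 in MEP and 14.5 to 61.9 in LSK. The part of such cells in these differences was not tested.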

How the data were processed

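Scanner files of 8 one-colour arrays hold intensity values, made with Agilent Feature Extraction 10.7.1.1 per the file headers, with background subtracted and no scaling between arrays. The flags of 0 or 1 that mark outlier and background spots are those of the deposited files. In the series table, the authors gave the same signals as a linear ratio to 1 factor per array. No spot was saturated, and 39.8% to 48.8% of probes were well above background. The number of arrays limits the precision.

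Processed signals were averaged over unflagged spots of a probe, taken to log2, and the 75th percentile of the array's spots was subtracted. A first run took that percentile over probes. It was replaced after its results were seen, to follow the wording of the gene rule, and is kept as an alternative. Accessions were matched to RefSeq symbols of GRCm38.p6. A gene was read from its brightest probe. For lower bounds, a dim value was replaced by its array's lowest signal among probes above background.

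Fits used limma 3.58.1 in R 4.3.3 on 13187 genes: an additive fit of cell type, JAK2 and Ezh2, a fit with genotype nested in cell type, and an interaction. They were tested on simulated data. Alternatives were normexp (on median signals with an offset of 50, as mean signals were not used), quantile normalization, the series table, other filters and floors, the average of probes, flagged spots kept, another variance prior, leaving out X and Y genes, the genotypes as a block (added after seeing the data), and leaving out each array. The genes and lists were chosen with earlier results of these data known. All 10 genes are named, with up to 4 called genes each way from each wider list, or up to 2 with the largest change where none was called, of which the text gives a choice; some of them are not reported here.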

Additional observations from a re-analysis of the deposited data

How the results depend on the processing

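Of the 10 genes, the number called for Ezh2 deletion was 0 in the reported analysis and 1 (Cd83) under normexp, 1 with genes above background on all 8 arrays and 1 with a trended variance prior. The same 3 settings gave 1 (Cd83) within LSK, where it was 0 (adjusted p = 0.0130, 0.00551 and 0.0183). For MEP against LSK it was 5, with 4 to 6 under the alternatives, and for the other comparisons it was 0 in each alternative run. Over all alternatives the Cd83 difference with Ezh2 deletion was 1.54 to 2.24 (adjusted p = 0.00653 to 0.227). Relb was called higher in MEP in 4 alternatives: genes above background on all 8 arrays (adjusted p = 0.0407), the trended prior (0.0430), and without Ezh2Δ/Δ LSK (0.0404) or Ezh2Δ/Δ MEP (0.0352). The 75th percentile over probes, used in the first run and replaced after its results were seen, changed no call among the 10 genes and gave 93, 43 and 5266 genes called for Ezh2 deletion, JAK2V617F and MEP against LSK, beside 93, 41 and 5401.

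Counts over all genes moved more. For Ezh2 deletion they ran from 7 (common floor) to 179 (trended prior), and from 13 to 103 without 1 array. For JAK2V617F they ran from 0 (common floor) to 118 (trended prior), and from 0 to 43 without 1 array. For MEP against LSK they ran from 4733 to 9778 (no filter), and from 3653 to 5861 without 1 array. Within LSK they ran from 0 to 53 for Ezh2 deletion (20 reported) and from 0 to 232 for JAK2V617F (19 reported). Within MEP they ran from 0 to 154 (79 reported) and from 0 to 125 (20 reported). The largest counts for the interaction and for the MEP minus LSK differences of the Ezh2 and JAK2V617F effects were 14, 6 and 32, against 0, 1 and 0 reported. Medians of the 10 genes in pairs of single arrays were recomputed under 4 settings chosen after seeing the data, and each value moved by less than the median SE of the 10 genes within the cell type. With the percentile over probes, Relb was no longer 2-fold higher in JAK2V617F/Ezh2Δ/Δ MEP than in Ezh2Δ/Δ MEP, where it lies at the threshold (1.94 against 0.94). Single arrays were left out in the additive fit only, so the effects within a cell type and the interaction were not tried without 1 array. The labels give each group replicate number 1 alone, so that number forms no block, and arrays were matched by cell type and genotype only. With the 4 genotypes as a block, an alternative chosen after seeing the data, MEP against LSK gave 5 of the 10 genes called and 4946 genes in all, and no call among the 10 changed. The cause of these changes was not tested.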
